A study of Homo sapiens with 38 samples.

Results

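The 8 noncoding RNA host genes described here are MIR17HG, MIR155HG, MIR181A1HG, MALAT1, NEAT1, GAS5, SNHG1 and SNHG15, out of 59716 gene records in the RefSeq table of the human genome (GRCh38.p14). They were picked by name, as transcripts that carry small RNAs or act as long noncoding RNAs in T cells. The rule uses no measured value, but the names were picked with earlier results of these data known, so the shares over other records are given as a description. For each gene, every listed region within its record plus 50 kb on each side (its window) was taken from 3 lists of ChIP-seq regions. ChIP-seq fixes proteins to DNA, recovers the fragments bound by 1 protein or histone mark with an antibody, and sequences them. Stretches where the fragments pile up are listed as regions, each with a summit, the position of the highest enrichment. The windows held 54 of 29009 regions for GATA3, a zinc finger factor of T cells, and 68 of 26205 for BHLHE40, a basic helix-loop-helix factor induced when T cells are activated. They also held 119 of 113570 regions for H3K27ac, an acetylated histone mark found at active promoters and enhancers.

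The series profiled Jurkat cells, an established T-cell acute lymphoblastic leukaemia line, in 38 samples forming 19 groups of 2. The 3 groups used here were transduced with a control lentivirus (Ctrl_LV) and stimulated with PMA (50 ng/ml) together with the calcium ionophore ionomycin (500 ng/ml), agents that mimic signalling through the T-cell receptor. They differed in the antibody: GATA3 (clone D13C9), BHLHE40 or H3K27ac. The labels disagree on its duration, with 5 hours in the sample description and 2 hours in the protocol. Every group used was stimulated, so no resting state was compared. The other 16 groups, which include input controls, base-edited cells and cells over-expressing BHLHE40, were not analysed here. The 2 samples of a group gave 1 joint list, so no value per sample, no spread between replicates and no test between groups can be given, and the depth behind a region is unknown. Of 7 T-cell marker genes fixed for the check of the cell type, 7 had an H3K27ac region within 1 kb of the gene start, against 1 of 4 B-cell markers (CD79A), 0 of 4 myeloid markers and 0 of 3 erythroid markers.

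Host genes are transcribed as long precursors from which smaller RNAs are cut. Drosha excises microRNA hairpins, Dicer trims them, and an Argonaute protein uses the mature strand to silence messenger RNAs that match its seed, the short stretch near the 5′ end. Small nucleolar RNAs (snoRNAs) are instead released from spliced introns and guide the chemical modification of ribosomal RNA, while MALAT1 and NEAT1 stay in the nucleus at speckles and paraspeckles. In T cells, miR-155 is induced by activation, the miR-17-92 cluster promotes proliferation, miR-181a tunes T-cell receptor sensitivity in thymocytes, and GAS5 is linked to growth arrest.

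The mature products of the 3 microRNA hosts are shown because the regions described further on lie on or beside their hairpins, and because several share a seed. Sequences are from RefSeq (GRCh38.p14), and capitals mark the seed, bases 2 to 8. MIR17HG (+ strand) carries 6 hairpins within chr13:91350605-91351391. Of its main strands, miR-17-5p and miR-20a-5p share 1 seed, miR-19a-3p and miR-19b-3p share another, and miR-18a-5p and miR-92a-3p each have their own.
hsa-miR-17-5p: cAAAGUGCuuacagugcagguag
hsa-miR-20a-5p: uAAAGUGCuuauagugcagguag
hsa-miR-18a-5p: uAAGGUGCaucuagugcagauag
hsa-miR-19a-3p: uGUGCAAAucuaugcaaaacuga
hsa-miR-19b-3p: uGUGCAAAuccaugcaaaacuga
hsa-miR-92a-3p: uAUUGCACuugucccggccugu
MIR155HG (+ strand) carries the hairpin of miR-155 at chr21:25573980-25574044.
hsa-miR-155-5p: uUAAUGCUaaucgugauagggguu
MIR181A1HG (- strand) carries the hairpins of miR-181b at chr1:198858873-198858982 and of miR-181a at chr1:198859044-198859153, whose 5p strands share their seed.
hsa-miR-181a-5p: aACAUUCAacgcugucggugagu
hsa-miR-181b-5p: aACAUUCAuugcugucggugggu
The gene and promoter tables used here do not give exons and introns, so positions are given relative to gene records, gene starts and the records of the hosted RNAs. Above and below a record mean at higher and at lower coordinates.

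All 8 genes had a GATA3 region, a BHLHE40 region and an H3K27ac region within 1 kb of a gene start, and at all 8 a GATA3 region overlapped a BHLHE40 region there by at least 1 bp. Over 27303 long noncoding and protein-coding records with a listed start, 18% had a GATA3 region there, 36.4% a BHLHE40 region, 44% an H3K27ac region and 15.9% an overlapping pair of factor regions. Among the 11461 long noncoding records alone the shares were 10.1%, 18.2%, 25.1% and 8.18%, and among the 15842 protein-coding records 23.7%, 49.6%, 57.6% and 21.4%. Since all 8 had H3K27ac at the start, the 12010 records that also had it there are the nearer background. Of those, 38.5% had a GATA3 region, 79.2% a BHLHE40 region and 35.3% an overlapping pair. NEAT1 and SNHG15 are not in the promoter table, so either end of their records was taken as a start. A region counts here by its nearest edge, for the 8 genes and the other records alike, and its summit can lie further off. The summit of the strongest GATA3 region at the start lay 130 bp from a start at SNHG1 and 302 bp at SNHG15. At the other genes it lay from 1158 bp (GAS5) to 3599 bp (MALAT1) away. Counted by summits, 4 of the 8 genes had a GATA3 and a BHLHE40 summit at the start within 100 bp of each other. The share of other records with such summits was not computed, so it is not known whether this count is high or low.

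The strength of the start regions differed widely among the 8 genes. Strength is the authors' signal value, an enrichment whose reference is not stated, so values and ranks are compared only within 1 list. For BHLHE40 the start region of MIR181A1HG was the strongest, with a signal value of 85.5 and rank 73 of 26205, followed by MALAT1 at 55.5 (rank 279) and NEAT1 at 50.1 (rank 366). The start regions of MIR17HG (25.0), GAS5 (21.1), SNHG15 (15.0), SNHG1 (13.8) and MIR155HG (11.3) were all lower. For GATA3 the order began with MALAT1 at 43.5 (rank 1875 of 29009) and MIR181A1HG at 40.4 (rank 2183). MIR155HG (22.3) and SNHG15 (21.2) came next, then GAS5 (16.6), SNHG1 (16.3) and NEAT1 (14.4), and MIR17HG was last at rank 19146. The GATA3 value of SNHG15 is from the lower end of its record. At the upper end, which gave its BHLHE40 and H3K27ac values, GATA3 had 20.4. For H3K27ac GAS5 (10.1) and SNHG1 (9.10) led, the snoRNA host SNHG15 had 5.29, and MIR181A1HG (3.24) and MIR155HG (3.33) were lowest. The H3K27ac order depends on the measure. By the deposited −log10 q, MALAT1 (368) and NEAT1 (284) stood above GAS5 (145) and SNHG1 (86.6). Among the 2 lowest, the deposited −log10 q was 43.8 at MIR181A1HG, over 938 bp, and 3.81 at MIR155HG, over 417 bp. Without replicate values, it cannot be said which neighbours in these orders differ beyond their spread.

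**Figure D1:**
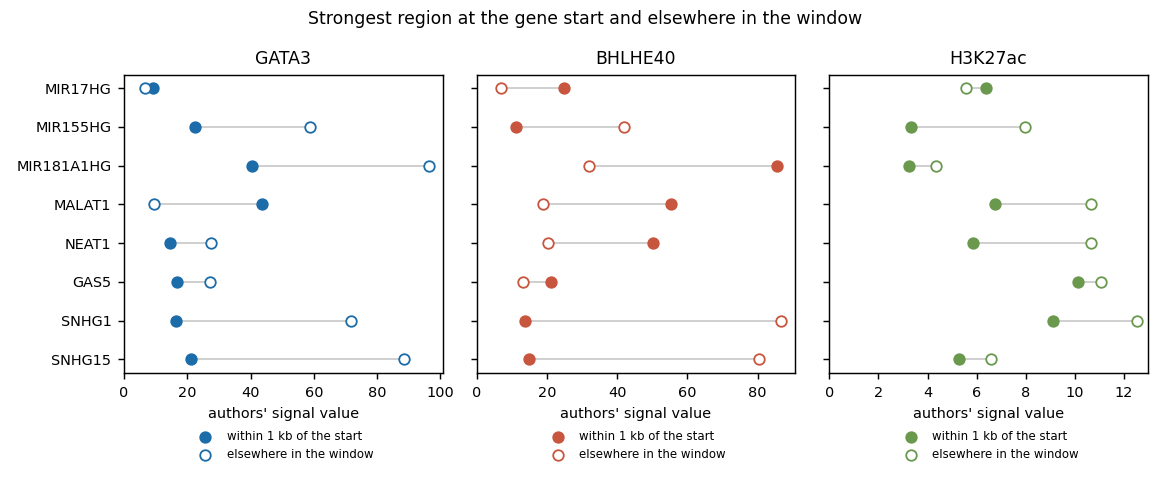
Authors' signal value (linear axes, 1 panel per list) of the strongest region within 1 kb of a gene start (filled) and of the strongest region elsewhere in the window (open) for each of the 8 host genes. For GATA3 the open point lies to the right for 6 genes and to the left for MIR17HG and MALAT1, and for BHLHE40 it lies to the right for MIR155HG, SNHG1 and SNHG15.

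Promoter sequences of 4 hosts are shown because the start regions sit on them to different extents: GATA3 and BHLHE40 regions cover all 300 bases at MIR181A1HG and SNHG1, BHLHE40 alone covers all 300 bases at MIR17HG, and no region of any list covers a base at MIR155HG. Each runs from 250 bases before the start to 50 after it, on the gene's strand, from RefSeq (GRCh38.p14). Capitals mark matches on either strand to 3 motifs. The first is the E-box core CANNTG, of which BHLHE40 is known to prefer the form CACGTG. The second is GATAA, the core recognised by GATA factors. The third is the AP-1 element TGANTCA, searched for after the sequences had been seen.
MIR17HG, chr13:91347437-91347736, + strand: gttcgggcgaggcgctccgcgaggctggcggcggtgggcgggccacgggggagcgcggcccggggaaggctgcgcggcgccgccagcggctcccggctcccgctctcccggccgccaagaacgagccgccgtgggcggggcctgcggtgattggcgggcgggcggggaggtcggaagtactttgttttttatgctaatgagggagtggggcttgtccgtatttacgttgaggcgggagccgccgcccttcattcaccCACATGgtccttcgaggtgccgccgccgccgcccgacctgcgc
MIR155HG, chr21:25561895-25562194, + strand: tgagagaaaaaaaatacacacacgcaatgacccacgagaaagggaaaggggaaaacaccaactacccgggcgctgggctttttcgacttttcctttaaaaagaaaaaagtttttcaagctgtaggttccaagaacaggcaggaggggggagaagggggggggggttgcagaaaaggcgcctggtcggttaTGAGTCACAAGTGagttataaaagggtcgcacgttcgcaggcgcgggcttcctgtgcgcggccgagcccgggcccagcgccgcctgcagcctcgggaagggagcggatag
MIR181A1HG, chr1:198937380-198937679, - strand: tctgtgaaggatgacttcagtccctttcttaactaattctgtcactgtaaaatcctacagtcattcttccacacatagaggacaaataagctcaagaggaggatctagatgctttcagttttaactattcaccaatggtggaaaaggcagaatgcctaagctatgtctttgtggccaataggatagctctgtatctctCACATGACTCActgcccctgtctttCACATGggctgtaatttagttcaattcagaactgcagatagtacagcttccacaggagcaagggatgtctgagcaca
SNHG1, chr11:62855836-62856135, - strand: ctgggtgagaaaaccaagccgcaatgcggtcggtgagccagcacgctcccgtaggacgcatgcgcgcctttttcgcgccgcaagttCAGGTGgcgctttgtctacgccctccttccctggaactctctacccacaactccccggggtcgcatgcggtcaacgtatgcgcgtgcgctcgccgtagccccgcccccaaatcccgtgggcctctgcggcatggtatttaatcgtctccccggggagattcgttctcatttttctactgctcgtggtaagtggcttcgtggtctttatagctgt
The promoter of MIR155HG has TGAGTCA 60 bases before the start, directly followed by the E-box core CAAGTG. That of MIR181A1HG has TGACTCA 48 bases before the start, sharing its first 2 bases with the E-box core CACATG.

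Of the 7 promoters listed for 6 members (MALAT1 has 2 starts), 7 held CANNTG, as did 68.7% of all 35116 listed promoters. CACGTG was in 0 of 7 against 7.26% of all. GATAA was in 1 of 7, GAS5, against 22.7%, and TGANTCA in 2 of 7, MIR155HG and MIR181A1HG, against 7.71%. The 2 members with the AP-1 letters are both microRNA hosts, but MIR17HG, also a microRNA host, had no match. As this motif was searched for after the sequences had been seen, its count is a description only. The promoters also differed in base composition. GC content was 73.0% at MIR17HG, 73.7% at the first MALAT1 start and 60.0% at SNHG1, against 42.3% at MIR181A1HG and 37.7% at GAS5, with a median of 58.7% over all promoters. A match describes the letters in the window and shows no binding site.

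MIR155HG gives rise to miR-155, which is known to promote effector responses. Its GATA3 regions had signal values of 10.6, 22.3, 38.2 and 58.7 in order along the chromosome, and each of the 4 overlapped a BHLHE40 region. Regions thus strengthened from below the record, through the start, to the hairpin and the far side of the record. At the start the nearest regions began 753 bp (GATA3), 899 bp (BHLHE40) and 690 bp (H3K27ac) inside the gene, so the printed promoter itself was uncovered. At the hairpin a GATA3 region (38.2, rank 2418), a BHLHE40 region (30.6, rank 1288) and an H3K27ac region (7.30, rank 6087) lay on top of each other, and the BHLHE40 summit fell inside the hairpin. MIR155 was the only one of the 10 hosted microRNA hairpins covered by all 3 lists. The strongest place was at chr21:25577764-25578754, with the GATA3 summit 2983 bp above the record. There GATA3 reached 58.7 (rank 1057) and BHLHE40 41.9 (rank 586) with summits 10 bp apart, and 0 H3K27ac regions overlapped it. The strongest H3K27ac region of the window (7.99) lay with a BHLHE40 region in MRPL39, a mitochondrial ribosomal protein gene, without GATA3.

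MIR17HG, the host of the miR-17-92 cluster, had the fewest GATA3 regions together with MALAT1, 2 in its window, and both lay inside the record. BHLHE40 had 5 regions in the window, and those touching the record covered 92.2% of it, against 26.9% for GATA3 and 18.8% for H3K27ac. A BHLHE40 region of signal value 9.76 had its summit 5 bp from the start. The stronger BHLHE40 region (25.0, rank 1989) lay further in, with its summit 62 bp from that of the GATA3 region (rank 19146). All 6 hairpins lay in 1 weak BHLHE40 region (5.53, rank 23073). MIR17, MIR18A and MIR19A, but not MIR20A, MIR19B1 or MIR92A1, lay in a GATA3 region of 6.58 (rank 25810) whose summit fell inside MIR18A. The cluster itself was therefore in the weaker part of both lists and carried 0 H3K27ac regions.

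MIR181A1HG, the host of miR-181a and miR-181b on chromosome 1, is the longest of the 8 records (129427 bp) and had the densest windows for both factors. Its window held 22 GATA3, 28 BHLHE40 and 34 H3K27ac regions, or 9.59, 12.2 and 14.8 per 100 kb. Over all records the medians were 0.949, 0.992 and 4.86 per 100 kb, and over records with H3K27ac at the start 1.75, 2.25 and 7.85. The density was above that of 99.6% of all records for GATA3 and 99.9% for BHLHE40. Several of these regions are pieces of 1 stretch: joining regions no more than 200 bp apart left 20 GATA3 and 19 BHLHE40 regions. The wide start region held both factors (GATA3 40.4 over 4165 bp, BHLHE40 85.5 over 4725 bp) with summits 51 bp apart. Further above the record, at chr1:198958323-198960360, stood the strongest GATA3 region of all 8 windows (96.3, rank 285), 21859 bp from the record by its summit and 4 bp from the summit of a BHLHE40 region of 32.1 (rank 1137). The H3K27ac region there was also the strongest of the window by signal value, yet this was 4.34 (rank 18044), and only 34.7% of all records had a lower maximum. By −log10 q the H3K27ac region at the start stood above it, with 43.8 against 17.7. H3K27ac overlapped 7 of the 22 GATA3 regions and 10 of the 28 BHLHE40 regions. Far from the start, a faint BHLHE40 region (2.99, rank 25919) with its summit inside MIR181A1 covered that hairpin and 38 of the 110 bp of MIR181B1. A stronger BHLHE40 region (13.5, rank 7134) ended less than 200 bp from it on the MIR181B1 side, so that both make 1 stretch once joined. No GATA3 or H3K27ac region lay over the hairpins.

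**Figure D2:**
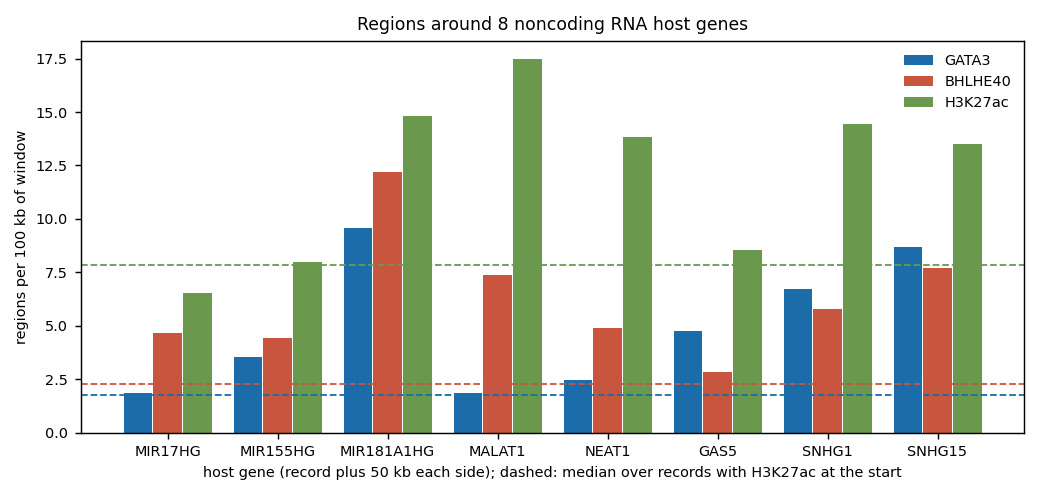
Regions per 100 kb of window (record plus 50 kb on each side) for GATA3, BHLHE40 and H3K27ac at each of the 8 host genes, with dashed lines for the medians over records that have H3K27ac at the start. MIR181A1HG has the tallest factor bars (9.59 and 12.2), and MALAT1 pairs the lowest GATA3 bar (1.84) with the tallest H3K27ac bar (17.5).

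MALAT1 and NEAT1 are neighbours on chromosome 11, 52197 bp apart, so their windows overlap by 47803 bp and share 1 BHLHE40 and 5 H3K27ac regions. Each was counted once in the totals. MALAT1, an abundant speckle RNA, was the record most covered by the 2 factors together: 1 BHLHE40 region of 11476 bp (55.5, rank 279) ran from 910 bp before the record to 1787 bp beyond it and covered 100% of it, and GATA3 regions covered 80.0%. The BHLHE40 summit lay 67 bp from a start and the GATA3 summit, within the gene body, 3666 bp from the BHLHE40 summit. H3K27ac covered 21.8% of the record. Away from the gene, 7 of the 8 BHLHE40 regions of the window had no GATA3 region, among them 4 of signal values from 10.9 to 19.0 in LTBP3, a gene for a binding protein of latent TGF-beta. The window had 19 H3K27ac regions, 17.5 per 100 kb, the highest density of the 8.

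NEAT1, the RNA scaffold of paraspeckles, had the same arrangement on a longer record. A BHLHE40 region of 6995 bp (50.1, rank 366) and a GATA3 region of 5160 bp (14.4, rank 10409) lay over its lower end with summits 3008 bp apart. They covered 23.9% and 18.5% of the record, and H3K27ac 6.12%. MIR612, the hairpin near the other end of the record, was the only hosted microRNA outside every BHLHE40 region. Between NEAT1 and MALAT1, the shared part of the windows held an H3K27ac region of 10.7 (rank 2013) in the long noncoding gene ENEMAL with a BHLHE40 region of 12.3 and 0 GATA3 regions. Below NEAT1, at FRMD8 and SLC25A45, GATA3 (27.5) and BHLHE40 (20.5) met with summits 91 bp apart.

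GAS5 hosts 11 snoRNA records, mostly box C/D snoRNAs that guide ribose methylation. A BHLHE40 region of 8438 bp (21.1, rank 2863) covered 99.7% of the record and all 11 snoRNAs. GATA3 covered 53.6% of the record in 2 regions, over 7 of the 11 snoRNAs, and H3K27ac 28.4%, over 1 (SNORD74). The start of GAS5 faces that of ZBTB37, a zinc finger gene, within 1 kb, so a region at this start belongs to both. The factor regions stopped short of the start itself: the BHLHE40 region ended 13 bp and the nearest GATA3 region 326 bp inside the gene. The strongest GATA3 region of the window (27.1, rank 4160) lay 1482 bp above the record in ZBTB37, with a BHLHE40 region of 10.6 and 0 H3K27ac regions.

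SNHG1 hosts 9 snoRNA records, all inside a BHLHE40 region of 5557 bp (13.8, rank 6899) that covered 100% of the gene. GATA3 regions touched 5 of the 9. H3K27ac lay over SNORD25 and SNORD26, those nearest the start, and reached 3 bp into SNORD27. At the start, shared with SLC3A2 (the heavy chain of an amino acid transporter raised in activated T cells), the BHLHE40 summit lay 26 bp and the GATA3 summit 130 bp from the first base. A stronger place lay over WDR74 and RNU2-2, a U2 spliceosomal RNA gene, with its GATA3 summit 10355 bp below the record. It had a GATA3 region of 71.8 (rank 659) and a BHLHE40 region of 86.8 (rank 71), 21 bp apart at their summits, and the strongest H3K27ac region of the 8 windows (12.5, rank 1106). A GATA3 region of 28.5 inside SLC3A2 had no BHLHE40 region.

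SNHG15 hosts a single snoRNA, SNORA9, of the box H/ACA class that guides pseudouridylation, which lay in a BHLHE40 region (15.0) and in no GATA3 or H3K27ac region. BHLHE40 covered 59.9% of the record, H3K27ac 22.1% and GATA3 19.4%. Both ends of the record had a GATA3 region (21.2 at the lower and 20.4 at the upper end) and a BHLHE40 region (6.45 and 15.0), while H3K27ac marked the upper end (5.29). All 8 BHLHE40 regions of this window overlapped H3K27ac, the highest share among the members. The strongest place was at chr7:44994712-44996470 in LOC102723334, with its GATA3 summit 8645 bp above the record. There GATA3 reached 88.6 (rank 365) and BHLHE40 80.4 (rank 89), 8 bp apart, with an H3K27ac region of 6.00.

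**Figure D3:**
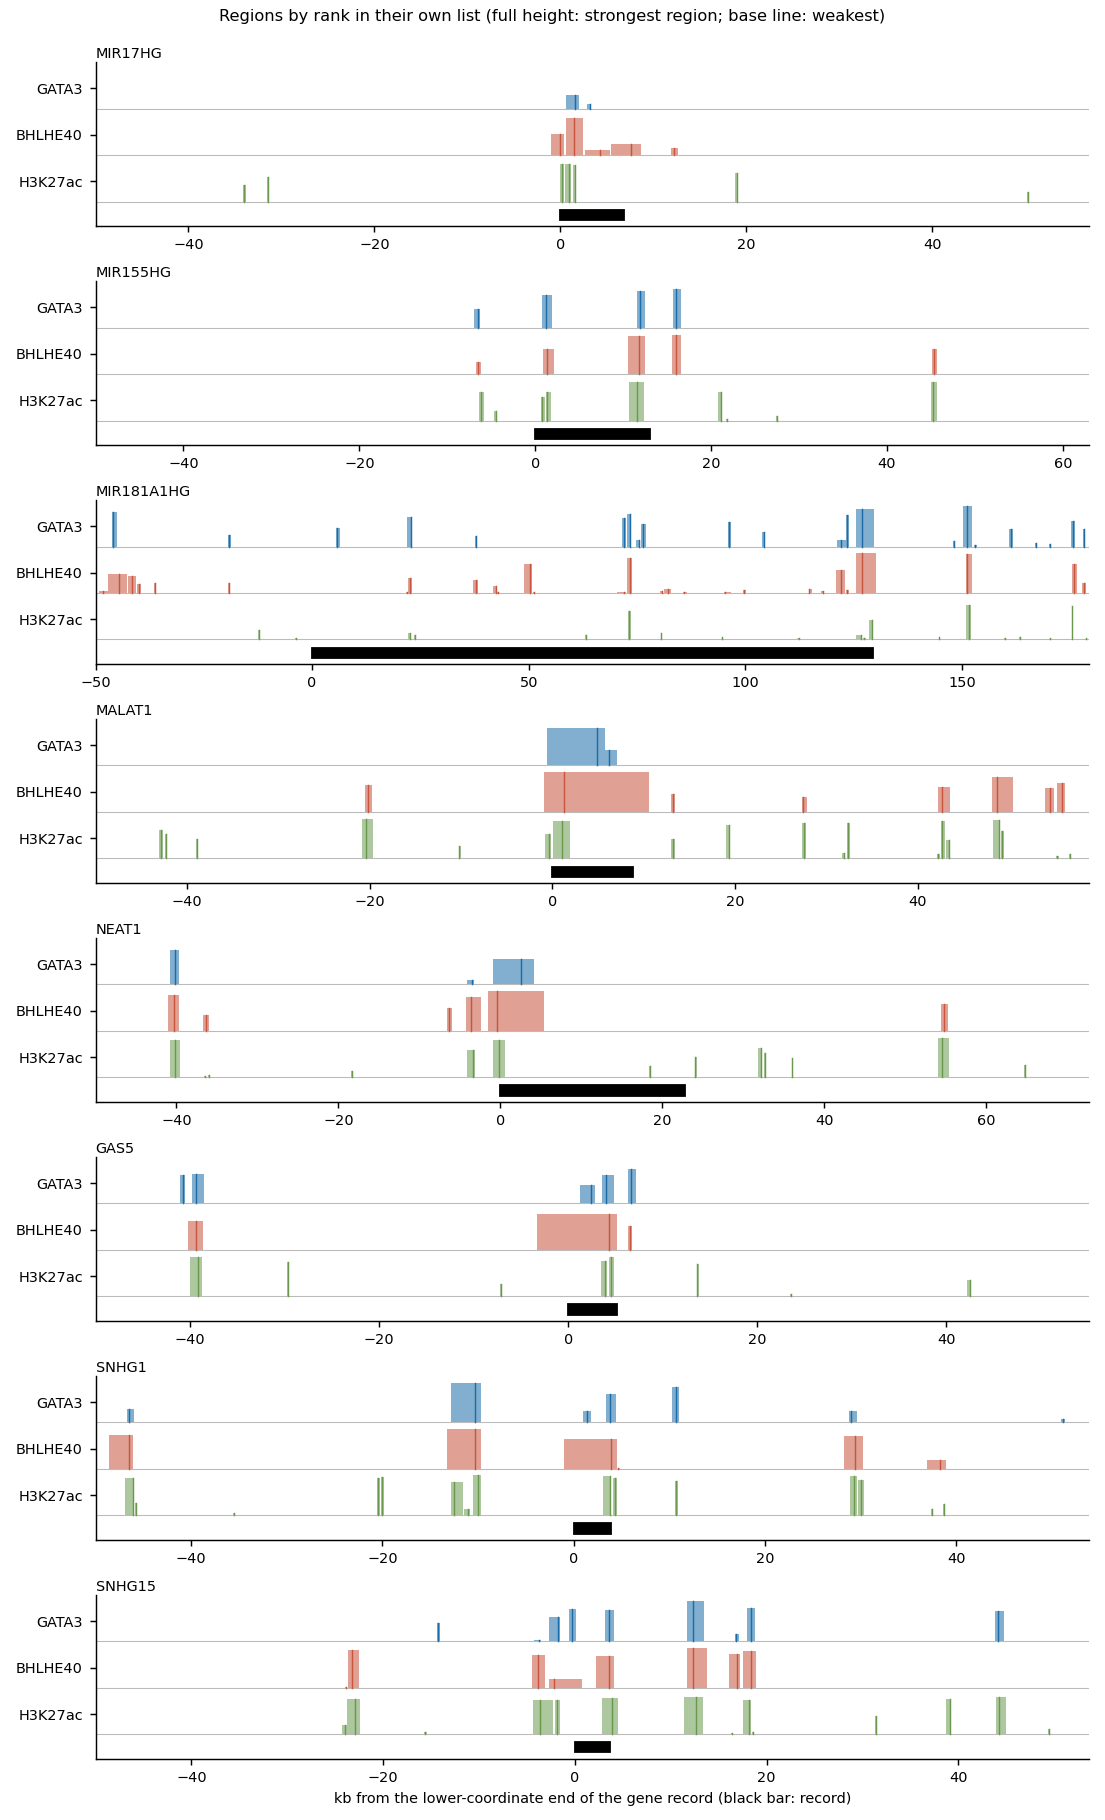
Position of every region in the 8 windows, in kb from the lower-coordinate end of the gene record (black bar), with the height of each box showing its rank in its own list (full height is the strongest region) and vertical lines marking summits. The strongest factor regions stand over the gene start at MALAT1 and outside the record at MIR155HG and SNHG15, and wide BHLHE40 boxes cover the records of MALAT1, GAS5 and SNHG1.

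Width set several of these genes apart from most records. A BHLHE40 region of at least 5 kb touched 4 of the 8 records (MALAT1, NEAT1, GAS5 and SNHG1), against 0.425% of 27303 records. Among the 12704 records of 3 to 25 kb, 0.472% were touched by such a region, and among the 5079 of them with H3K27ac at the start, 1.08%. The whole BHLHE40 list holds 95 regions of that width, 0.363% of it, and MALAT1 ranks 14 by width, GAS5 38, NEAT1 51 and SNHG1 77. Just below the limit came MIR181A1HG with 4725 bp, then SNHG15 with 3379 bp, MIR17HG with 3229 bp and MIR155HG with 1973 bp. These are the widest regions on each record, and the median of the same measure was 1165 bp over the 4000 of those 5079 records that a BHLHE40 region touched. The record of MIR181A1HG is longer than those records. The limit was chosen after the widths had been seen, and at 3 kb the count is 7 of 8 against 1.48% of records. Such width is not particular to these 8 genes. The widest BHLHE40 regions of the list, named after their values were seen, lie over the protein-coding genes SFPQ (16389 bp), EIF5 (15198 bp) and NCL (15026 bp). Those over EIF5 and NCL also touch snoRNA records.

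GATA3 regions were narrower, with a list median of 596 bp and only 4 regions of at least 5 kb (0.0138% of the list). Of those 4, 1 lies on MALAT1 (6274 bp) and 1 on NEAT1 (5160 bp). The other two, named after their values were seen, lie over TSPOAP1 and MIR142HG (6771 bp), the latter the host of the blood-cell microRNA miR-142, and in the T-cell receptor beta locus TRB (5846 bp). On SNHG1, a gene spanned by a BHLHE40 region of 5557 bp, the widest GATA3 region was 1117 bp. Regions of BHLHE40 covered at least 50% of the record of MIR17HG, MALAT1, GAS5, SNHG1 and SNHG15, 5 of 8, against 1.7% of all records, 0.913% of those of 3 to 25 kb and 2.17% of the latter with H3K27ac at the start. For GATA3 it was MALAT1 and GAS5, 2 of 8, against 0.513%, 0.0945% and 0.217%. No input or control immunoprecipitation was analysed here.

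**Figure D4:**
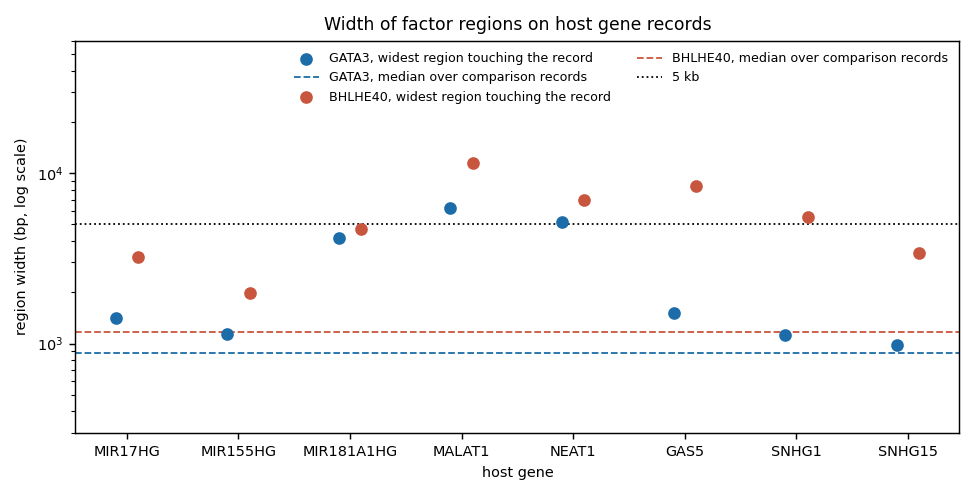
Width in bp (log axis) of the widest GATA3 and BHLHE40 region touching each of the 8 gene records, with a dotted line at 5 kb. Dashed lines give the median of the same measure over touched records of 3 to 25 kb with H3K27ac at the start (881.5 bp for GATA3 and 1165 bp for BHLHE40), and the BHLHE40 points run from 1973 bp at MIR155HG to 11476 bp at MALAT1.

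Over the hosted small RNAs together, BHLHE40 regions touched 9 of 10 microRNA hairpins, 8 of them over their whole length, against 7.21% of 1913 microRNA records in the gene table. GATA3 regions touched 4 and H3K27ac regions 1, against 3.24% and 7.74%. Of the 782 microRNA records inside long noncoding or protein-coding records with H3K27ac at the start, 10.6%, 5.12% and 11.5% were touched by BHLHE40, GATA3 and H3K27ac. For the 21 snoRNA records the counts were 21 for BHLHE40, all over their whole length, 12 for GATA3 (9 whole) and 4 for H3K27ac (3 whole). Of all 1199 snoRNA records 9.26%, 4.17% and 4.67% were touched, and of the 474 inside records with H3K27ac at the start 17.5%, 7.38% and 6.12%. MASCRNA, the small RNA cut from the end of MALAT1, lay in the BHLHE40 region only. Hosted RNAs of 1 gene share its regions and are not independent of each other: the 11 snoRNAs of GAS5 lie in a single BHLHE40 region, as do the 9 of SNHG1 and the 6 hairpins of MIR17HG. The GATA3 overlap varied within a host. In GAS5 the GATA3 summit fell inside SNORD77, and SNORD81, SNORD47, SNORD80 and SNORD75 lay in no GATA3 region.

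**Figure D5:**
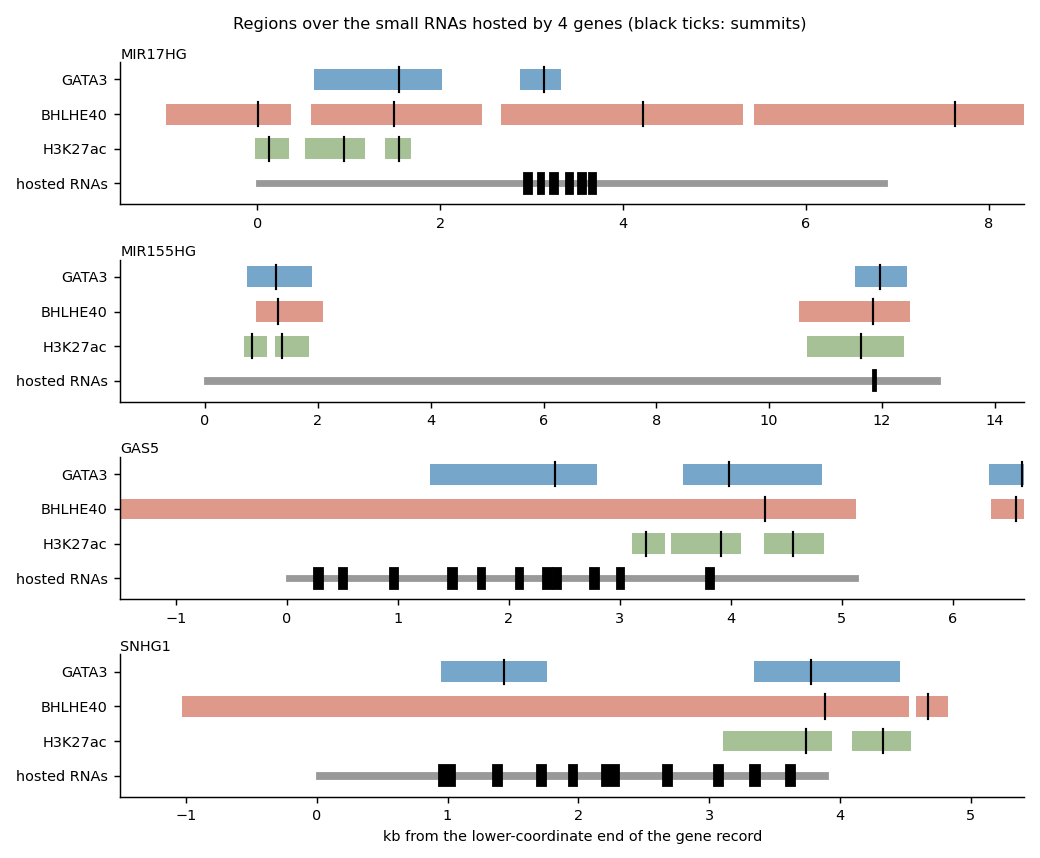
GATA3, BHLHE40 and H3K27ac regions (coloured bars, with black ticks at summits) over the hosted small RNAs (black boxes on the grey gene record) of MIR17HG, MIR155HG, GAS5 and SNHG1, in kb from the lower-coordinate end of the record. The BHLHE40 bars span every hosted RNA in these 4 genes, whereas H3K27ac bars reach the hosted RNAs nearest the start in GAS5 and SNHG1 and the hairpin in MIR155HG.

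Across all 8 windows, 40 of 54 GATA3 regions overlapped a BHLHE40 region, or 74.1% (95% Wilson interval 61.1 to 83.9%), against 48.7% of the whole list. The intervals cover counting error only, and neighbouring regions are not independent. Regions in the windows were also wider than in the lists, with medians of 889.5 against 596 bp for GATA3 and 1202.5 against 739 bp for BHLHE40. A wider region meets another more easily, and the part of width in these shares was not tested. In the other direction, 37 of 68 BHLHE40 regions (54.4%, 42.7 to 65.7%) overlapped GATA3, against 53% of the list. MIR181A1HG held 22 of the GATA3 regions, and without it 27 of 32 GATA3 regions (84.4%) overlapped BHLHE40. The share of BHLHE40 regions overlapping H3K27ac was 42 of 68 (61.8%, 49.9 to 72.4%), below the 76.4% of the whole list, but 32 of 40 (80.0%) without MIR181A1HG. By gene, this share was lowest at MIR181A1HG (35.7%), MIR17HG (2 of 5) and GAS5 (2 of 3). For GATA3, 28 of 54 regions (51.9%, 38.9 to 64.6%) overlapped H3K27ac against 49.1% of the list, and 21 of 32 (65.6%) did without MIR181A1HG.

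Seen from the mark, 40 of 119 H3K27ac regions (33.6%, 25.8 to 42.5%) overlapped GATA3 against 15.3% of the list, and 61 of 119 (51.3%, 42.4 to 60.1%) overlapped BHLHE40 against 22.9%. Among the strongest 10% of each list were 7 of the 54 GATA3 regions (13.0%), 11 of the 68 BHLHE40 regions (16.2%) and 22 of the 119 H3K27ac regions (18.5%). The median signal value was 13.5 for GATA3 in the windows against 11.2 in the list, 10.0 against 9.35 for BHLHE40 and 3.00 against 3.31 for H3K27ac. The medians of the windows thus lay above those of the lists for both factors and below for H3K27ac. The summits of overlapping GATA3 and BHLHE40 regions were a median of 65 bp apart (40 GATA3 regions, 0 to 4908 bp) against 35 bp over 14123 in the list, and 104 bp without MIR181A1HG. Within 50 bp of each other were 35% of the pairs, against 61.5% in the list. The longest distances were those on MALAT1 (4908 and 3666 bp) and NEAT1 (3008 bp), and without regions of at least 5 kb the median was 59 bp.

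Other genes of the same kinds, from lists put together by name, differed by kind. Of 21 other snoRNA host genes, 15 had a GATA3 region, 18 a BHLHE40 region and 19 an H3K27ac region at the start, and 15 an overlapping pair of factor regions. Among long noncoding records the shares were 10.1%, 18.2%, 25.1% and 8.18%. Among records with H3K27ac at the start they were 38.5% for GATA3, 79.2% for BHLHE40 and 35.3% for the pair. Most other snoRNA hosts thus had the same start regions as the 8 genes. The highest values in this list were SNHG7 for BHLHE40 (37.5) and SNHG8 for GATA3 (28.9), while SNHG14 and SNHG18 had no region at the start in any list. SNHG3, SNHG5 and ZFAS1 had a BHLHE40 region of at least 5 kb at the start (7139, 7717 and 10018 bp). Of 27303 long noncoding and protein-coding records, 0.425% were touched by a region of that width. Of 13 other microRNA host genes, 2 had a GATA3 region, 4 a BHLHE40 region and 5 an H3K27ac region, shares near or above the 10.1%, 18.2% and 25.1% of long noncoding records. The 2 with both factors were MIR3142HG, which also carries miR-146a, with 43.5 for GATA3 and 74.1 for BHLHE40, and MIR22HG with 5.91 and 17.6.

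The genes whose proteins work on these RNAs carried H3K27ac at the start throughout, and among all records with that mark there 38.5% had a GATA3 region and 79.2% a BHLHE40 region. Of 8 microRNA processing genes, 3 had a GATA3 region and 6 a BHLHE40 region at the start, with AGO1, an Argonaute gene, highest for BHLHE40 (19.3) and TARBP2, a Dicer partner, highest for GATA3 (10.8), so that both counts were near those shares. Of 7 genes for paraspeckle proteins, the partners of NEAT1, 6 had both factors. SFPQ had a BHLHE40 region of 16389 bp there, and NONO had no factor region. Of 6 genes for box C/D snoRNA-bound proteins, 3 had a GATA3 region and 5 a BHLHE40 region, with NOP56 the highest in both (16.5 and 38.0) and FBL, the methyltransferase, with no factor region. The H3K27ac count was 8 of 8, 7 of 7 and 6 of 6 in these 3 lists, against 57.6% of protein-coding records.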

How the data were processed

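ChIP-seq for GATA3, BHLHE40 and H3K27ac was represented by 1 deposited list of regions per group of 2 samples. Samples were grouped by their titles. The submitters' processing notes name bcl2fastq 2.20, cutadapt 2.5, Bowtie2, MACS2 2.1.0 and the build GRCh38/hg38, without their roles or settings, and whether input controls were used is not given in the sources used here. In the authors' factor lists the score follows the irreproducible discovery rate (threshold 0.05), which keeps weak regions that repeat between samples. The deposited H3K27ac list, named as pooled, has its score on another scale and no such filter. The signal value, −log10 q-value and summit offset of each region are the authors' deposited values, and what the signal is relative to is not stated.

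Each line was 1 region, in 1-based coordinates. Windows, overlaps of at least 1 bp, ranks, widths and covered shares were computed with Python 3.11.15, scipy 1.17.1, pandas 2.3.3, numpy 2.4.6 and matplotlib 3.10.9, and the overlap functions were tested on simulated data. Gene records, starts and sequences are from RefSeq GRCh38.p14, and sequences matched for 6 of 8 promoters and 9 of 10 hairpins. The rule for named genes took all 8 members, up to 3 of the strongest regions per gene and list plus those at the start, the genes holding them, and the highest and lowest examples of the other lists. Members and lists were chosen with earlier results of these data known, and no test was run. Some named examples are not reported here. Alternatives were other windows, start distances, overlap rules, stricter scores and −log10 q, and leaving out MIR181A1HG. The nearest regions to the window limit were, inside, BHLHE40 at 48386 bp (signal value 6.71) and GATA3 at 48411 bp (10.3), both at MIR181A1HG, and outside, those on MALAT1 seen from NEAT1 at 51288 bp (55.5) and 51633 bp (43.5). For H3K27ac they were at 49169 bp (2.27, MIR181A1HG) and 50054 bp (3.82, SNHG1).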

Additional observations from a re-analysis of the deposited data

How the results depend on the processing

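There were 13 results and 59 alternative settings (46 planned, 13 chosen after seeing the data). Of the values, 45 stayed within 1.5 times the main count or within the interval of the main share or median, and 14 did not. For the median summit distance of 65 bp that interval was 49 to 130 bp, so the 104 bp without MIR181A1HG counted as unchanged. Requiring factor summits within 100 bp left 4 genes with a shared start, a rule that was not applied to other records. Without MIR181A1HG there were 32 GATA3 and 40 BHLHE40 regions, and the shares were 84.4% for GATA3 overlapping BHLHE40, 65.6% for GATA3 overlapping H3K27ac and 80.0% for BHLHE40 overlapping H3K27ac. H3K27ac regions numbered 75 with 20 kb on each side, 188 with 100 kb and 54 at a −log10 q of at least 5. With at least 50% of the region overlapped, 35.3% of BHLHE40 regions overlapped GATA3 and 32.4% overlapped H3K27ac. The latter share was 75.5% at a score of at least 830 and 45.6% with H3K27ac at a −log10 q of at least 5. A width of 3 kb touched 7 genes. At 500 bp from the start, 6 genes had GATA3, 7 BHLHE40 and 7 H3K27ac. At the stricter score 7 had GATA3, and at the stricter −log10 q 7 had H3K27ac. The cause of these moves was not tested beyond what each setting removes. No paired analysis was possible because the 2 samples of a group gave 1 joint list, and for the same reason no replicate could be left out.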
